A study of Drosophila melanogaster with 4 samples.

Results

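Chromosome arm 3L carried 1328 of the 6850 regions called as enriched for histone H4 monomethylated at lysine 20 (H4K20me1) in embryos of the wild-type Drosophila melanogaster strain Oregon-R, 14 to 16 h old. The members are all enriched regions that the combined list, called on the replicate set as a whole, places on 3L, and no score or width was used to choose them. Chromatin immunoprecipitation with sequencing (ChIP-seq) was done in 2 ChIP replicates with the fourth lot of an H4K20me1 antibody. Each replicate had its own input control, DNA from crosslinked chromatin without immunoprecipitation, and no list of the 2 inputs was analysed here. The replicate 1 list held 1180 regions on 3L and the replicate 2 list 1161. The labels do not say whether the replicates came from separate embryo collections, and their spread can be purely technical. Whole embryos mix many cell types, and a mark present in fewer cells and a weaker mark in each cell cannot be told apart. The lists carry no read counts, so sequencing depth is unknown.

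H4K20me1 is placed by the methyltransferase PR-Set7, and Suv4-20 enzymes add further methyl groups to the same lysine. In flies and mammals the monomethyl form is tied to the cell cycle and to chromosome compaction, and it can lie in long blocks over genes. The trimethyl form is known from pericentromeric heterochromatin, the compact, repeat-rich chromatin that flanks a centromere. Positions on a left arm such as 3L count from the telomere toward the centromere. All positions are on FlyBase release 5, in which the assembled 3L sequence is 24.5 Mb long. The genes under the regions are not named, because the gene table at hand describes another release.

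Taken in stretches of 5 Mb, the marked share of 3L fell from the telomere toward the centromere, in steps of very different size. The first 5 Mb lay inside regions over 39.8% ± 0.0698 of its bases (SD, n = 2), the next 5 Mb over 29.3% ± 0.325 and the third over 24.6% ± 0.142. The fourth 5 Mb stood at 23.6% ± 0.0653 and the remaining 4.54 Mb at 16.3% ± 0.147. Each step was larger than the spread between the replicates, and each replicate list gave the same order. That spread does not measure how coverage varies within a stretch. In replicate means, single 1 Mb windows ran from 17.1% to 33.0% in the third stretch and from 12.4% to 35.8% in the fourth. The last stretch joined unlike parts. Its window from 20000001 stood at 16.8%, and those from 21000001 and 22000001 at 28.0% and 27.5%, above the mean of the fourth stretch. The window from 23000001 stood at 1.42%. The order of the stretches thus depends on their bounds and is not a steady fall. Positions of a single genome are not replicates, so these differences carry no p-value.

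Both the number of regions and their width were greatest near the telomere. The replicates averaged 60.9 ± 2.69 regions per Mb in the first 5 Mb, 53.1 ± 0.424 in the second, 44.4 ± 1.98 in the third and 50.4 ± 1.70 in the fourth (SD, n = 2). The last 4.54 Mb held 27.8 ± 0.778 regions per Mb, again an average of unlike parts. The replicates averaged 58.5 in its 1 Mb window from 21000001 and 5 in that from 23000001. Median width fell from 3697 ± 51.6 bp in the first 5 Mb to 2796 ± 109 bp in the fourth, and was 2976 ± 54.8 bp in the last stretch. Wide regions, those of 20 kb or more, numbered 62 in the combined list, of which 20 lay in the first 5 Mb and 16, 11, 9 and 6 in the following stretches. Replicate 1 had 16, 12, 11, 7 and 7 in the same stretches, and replicate 2 had 19, 12, 8, 8 and 4.

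The decline was not smooth. Among the 24 full 1 Mb windows, coverage ran from 1.37% to 42.1% in replicate 1, with a median of 27.6%, and from 1.48% to 43.9% in replicate 2, with a median of 27.9%. The first 5 windows were evenly high, at 38.1% to 42.0% in replicate 1 and 38.2% to 41.7% in replicate 2. The next window, starting at 5000001, stood at 24.7% and 24.4%. Further along, rich and poor windows alternated. The highest of all, in both replicates, started at 8000001, while the window from 10000001 was marked over 16.8% and 17.4% and the one from 18000001 over 12.3% and 12.5%. Between these, the windows starting at 14000001 (33.5% and 32.5%) and 16000001 (36.1% and 35.6%) were rich. The replicates placed these peaks and dips alike, with a Spearman correlation of 0.993 across the 24 windows, which share their libraries and carry no p-value.

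**Figure D1:**
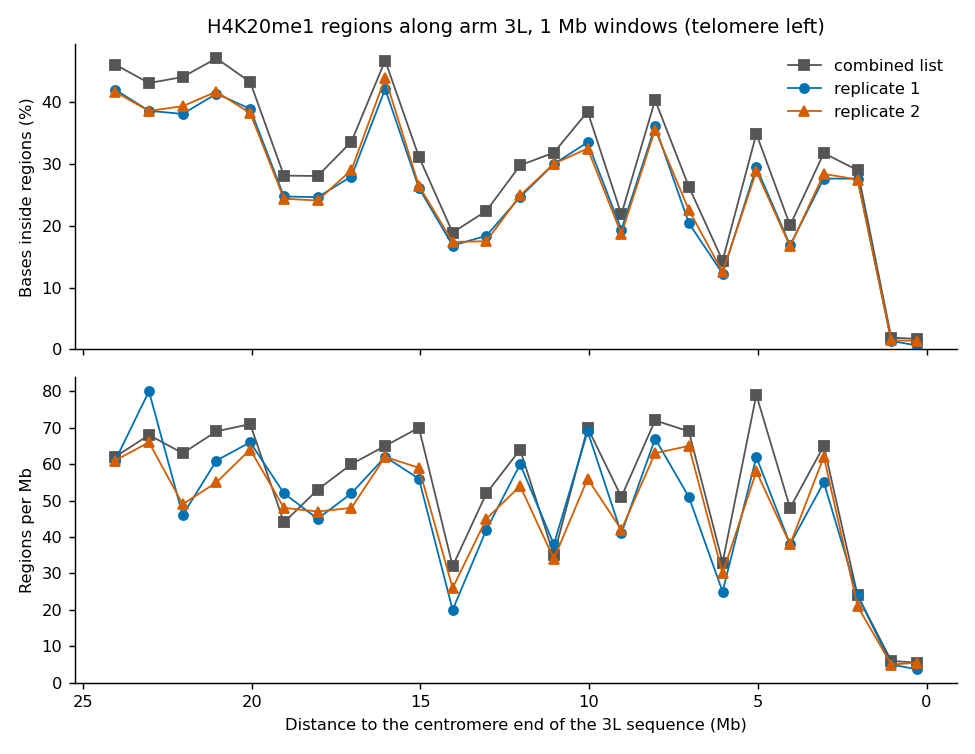
Percent of bases inside regions (top) and regions per Mb (bottom) in 1 Mb windows of 3L, plotted against the distance from the window's centre to the centromere end of the sequence in Mb, with the telomere at the left. Each point is a window in replicate 1, replicate 2 or the combined list, and the window nearest the centromere is shorter; the first 5 windows lie at 38.1% or more and the last full one at 1.37% and 1.48% in the replicates.

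Across the 24 windows, Spearman's correlation of coverage with position was -0.57 in replicate 1 and -0.59 in replicate 2. It was -0.55 and -0.57 over the 22 windows that start before the last 3 Mb. Of these 22, the first 5 had median coverages of 38.9% and 39.3% in the replicates. The other 17 had medians of 24.7% and 24.9%, and ran from 12.3% to 42.1% in replicate 1 and from 12.5% to 43.9% in replicate 2. The correlation therefore does not by itself show a steady fall along the arm, and a trend within the 17 was not tested. Over those 22 windows Spearman's correlation of mean region width with position was -0.69 for the combined list, -0.47 for replicate 1 and -0.62 for replicate 2. For the number of regions it was -0.01, -0.28 and -0.19 in that order. Over all 24 windows the order of width and number was not the same in the lists. Width gave -0.54 and number -0.24 in the combined list, against -0.37 and -0.44 in replicate 1 and -0.48 and -0.37 in replicate 2. The windows left out of the 22 include the one from 22000001, where mean width was the highest of all windows in each list (12075 bp in the combined list). These are descriptions of windows that share their libraries. In the combined list 50% of all covered bases had been reached at 9561374, 39.0% of the way along the arm, and the replicates reached that point at 9481035 and 9465669. By 22401614, 91.3% of the way, 99% had been reached in the combined list.

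Median scores moved over a narrow range from stretch to stretch, but they too tended to fall with position. The score is the authors' value for each region and is on a log2 scale, as its values show, but the ratio behind it is not defined in the sources used here. The median score on 3L was 0.59 in the combined list, with a lowest value of 0.05 and a highest of 3.06, and 25.9% of the regions scored 1 or more. In the replicates the median score was 0.82 ± 0.02 in the first 5 Mb, 0.82 ± 0.004 in the second, 0.74 ± 0.03 in the third, 0.74 ± 0.04 in the fourth and 0.76 ± 0.002 in the last stretch (SD, n = 2). The first 10 Mb therefore scored slightly higher than the rest, by more than the replicate spread, though single 1 Mb windows overlapped. Their median scores in replicate means ran from 0.65 to 0.90 in the first 10 Mb, and the window from 16000001 also reached 0.90. The share of combined-list regions with a score of 1 or more was 27.0%, 28.8%, 22.9%, 23.0% and 28.8% in the same stretches, with no fall toward the centromere in this list.

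**Figure D2:**
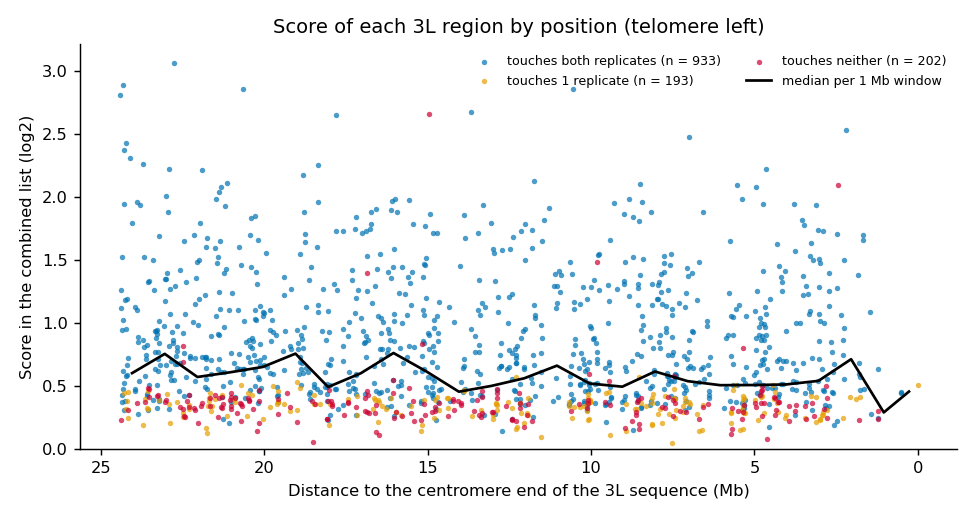
Score of each of the 1328 combined-list regions (log2 scale) against its distance to the centromere end of 3L in Mb, with the telomere at the left. Colours give whether the region touches both replicate lists (933), 1 of them (193) or neither (202), and the line joins the medians of 1 Mb windows, which stay between 0.45 and 0.76 except for the last full window at 0.29.

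The strongest region of the arm ran from 1777147 to 1797866. It was 20.7 kb wide, with a score of 3.06 in the combined list, 3.21 in replicate 1 and 3.00 in replicate 2. Next came a region from 223456 to 232324 (score 2.89, and 2.93 and 2.86 in the replicates). A score of 2.86 was reached at 2 further places, from 13995648 to 14012109 and from 3896809 to 3902889. Last of the 5 was the first region of the arm, from 128740 to 145341, with 2.81 in the combined list, 2.82 in replicate 1 and 2.85 in replicate 2. Each of the 5 was a single region in both replicates, and 4 of them lay in the first 4 Mb. The assembled sequence before 128740 held no region in any list.

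Most regions were short, and few wide ones held much of the marked sequence. The combined list's median width on 3L was 3026.5 bp, with 25% of regions under 1845 bp and 10% over 11864 bp. The replicate lists had medians of 3221.5 and 3192 bp. Regions under 2 kb made up 29.6% of the combined list, and none was narrower than 1001 bp, while the replicate lists started at 1303 and 1305 bp. The 62 wide regions held 28.7% of the covered bases, and 50% of those bases lay in the 184 widest regions. Wider regions scored higher. The median score was 0.33 under 2 kb, 0.61 from there up to 5 kb, 1.04 up to 10 kb, 1.26 up to 20 kb and 1.44 in wide regions, and Spearman's correlation across the 1328 regions was 0.809.

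The 10 widest regions were spread along the arm from 441995 to 22401614 and were all found in both replicates. Either replicate covered at least 96.9% of each of the 10. The replicates often divided them, however. Only 2 of the 10 were a single region in both lists, from 22287216 to 22401614 (114 kb, scores 2.53, 2.52 and 2.54 in the combined list and the replicates) and from 13221082 to 13272036 (51.0 kb, scores 1.91, 1.89 and 1.93). Another 4 were single in replicate 2 but divided into 2 or 3 regions in replicate 1. These ran from 8820172 to 8883221 (63.1 kb, score 1.23), from 10508704 to 10569550 (60.8 kb, score 1.45), from 3542956 to 3602452 (59.5 kb, score 1.24) and from 13602498 to 13659629 (57.1 kb, score 1.38). The remaining 4 were divided in both. The widest, from 441995 to 576471 (134 kb, score 1.79), corresponded to 2 regions in replicate 1 and 4 in replicate 2.

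Regions came in close groups separated by long empty stretches. The median distance between neighbouring regions was 2401 bp in the combined list, whereas the mean was 12713 bp. Of the 1327 gaps, 446 (33.6%) were under 1 kb, 576 were 1 to 10 kb, 222 were 10 to 50 kb and 83 were 50 kb or more. These 83 long gaps added up to 9.41 Mb, 38.3% of the arm. The replicate lists gave medians of 2833 and 3042 bp, with 30.1% and 27.7% of gaps under 1 kb and 90 and 91 long gaps. Some neighbours abutted, since the smallest gap was 0 bases in the combined list and in replicate 1 and 2 bases in replicate 2.

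**Figure D3:**
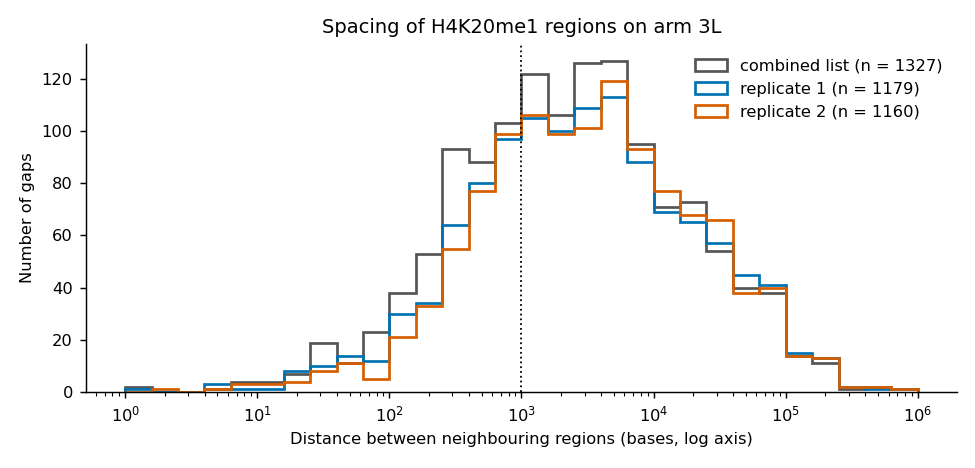
Number of gaps between neighbouring 3L regions by length in bases, on a log axis, for the combined list, replicate 1 and replicate 2, with gaps of 0 bases drawn at 1. The dotted line marks 1 kb, below which lie 33.6%, 30.1% and 27.7% of the gaps.

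Regions less than 1 kb apart were followed as chains. In the combined list 719 regions (54.1%) belonged to 273 chains of 2 or more, and the other 609 stood alone. Only 19 chains had 5 or more regions, and the largest number in a chain was 7. Chains held 59.7% of the covered bases. The lists did not share an order of scores between chained and lone regions. The combined list's median score was 0.54 for lone regions (quartiles 0.37 and 1.06), 0.55 in chains of 2, 0.63 in chains of 3 or 4 and 0.63 in chains of 5 or more (quartiles 0.40 and 0.86). The same classes gave 0.76, 0.79, 0.84 and 0.62 in replicate 1 and 0.80, 0.69, 0.79 and 0.80 in replicate 2. The chains themselves depended on the list: 19 had 5 or more regions in the combined list, 7 in replicate 1 and 4 in replicate 2.

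The longest chains were nearly unbroken blocks. In the combined list this follows from their definition, since a few gaps under 1 kb leave little of such spans uncovered. One ran from 432496 to 576471 (144 kb, 2 regions) and was covered over 99.4% in replicate 1 and 97.4% in replicate 2. Another, from 22277070 to 22401614 (125 kb, 3 regions), was covered over 99.1% in each. A lone region of 107 kb, from 22128629 to 22235261, came next. The chain from 4692441 to 4796688 (104 kb) joined 6 regions with scores from 0.33 to 1.10, and replicates 1 and 2 covered 95.6% and 93.9% of it. The chain from 2507807 to 2597063 (89.3 kb) joined 5 with scores from 0.34 to 1.79, covered over 94.7% and 93.2%. Strong and weak regions thus stood side by side within single blocks.

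In the combined list the median gap was shortest in the first 5 Mb and longest in the last stretch, with no steady change between. It was 1825 bp in the first 5 Mb, 2725 bp in the second, 2688 bp in the third, 2288 bp in the fourth and 4051 bp in the last stretch. The share of gaps under 1 kb was 36.7% in the first 5 Mb, between 32.8% and 34.1% in the next 3 stretches and 28.3% in the last. Long gaps numbered 13 in the first 5 Mb and 16, 19, 20 and 15 after it. They took up 976 kb of the first 5 Mb and 2534 kb of the last 4.54 Mb.

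Of the 5 longest gaps, 3 lay in the last 2 Mb. They ran from 23329721 to 24023756 (694 kb), from 24029150 to 24532253 (503 kb) and from 23096636 to 23310194 (214 kb), and neither replicate had a marked base in any of them. The other two lay inside the arm, from 18177578 to 18612248 (435 kb) and from 19283214 to 19541310 (258 kb). Replicate 1 reached into these by 79 and 4 bases at their edges, and replicate 2 by 0.

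In coverage, the fall at the centromere end was abrupt rather than gradual. The number of regions fell earlier and in steps. The replicates averaged 66 regions per Mb in the 500 kb window from 21500001, 26 in that from 22000001, 19 in that from 22500001 and 10 in that from 23000001. The 500 kb window starting at 22000001 was marked over 49.4% in replicate 1 and 50.3% in replicate 2, since it holds both the 107 kb and the 114 kb region. Regions of that width leave less room for separate ones, so its low count does not by itself mean less marked sequence. The next window, from 22500001, was marked over 5.77% and 4.602%, and the one from 23000001 over 2.74% and 2.95%. No list had a region in the window from 23500001. Beyond the end of the 114 kb region at 22401614 lay 2.14 Mb of assembled sequence, marked over 2.17% ± 0.0362 (SD, n = 2).

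**Figure D4:**
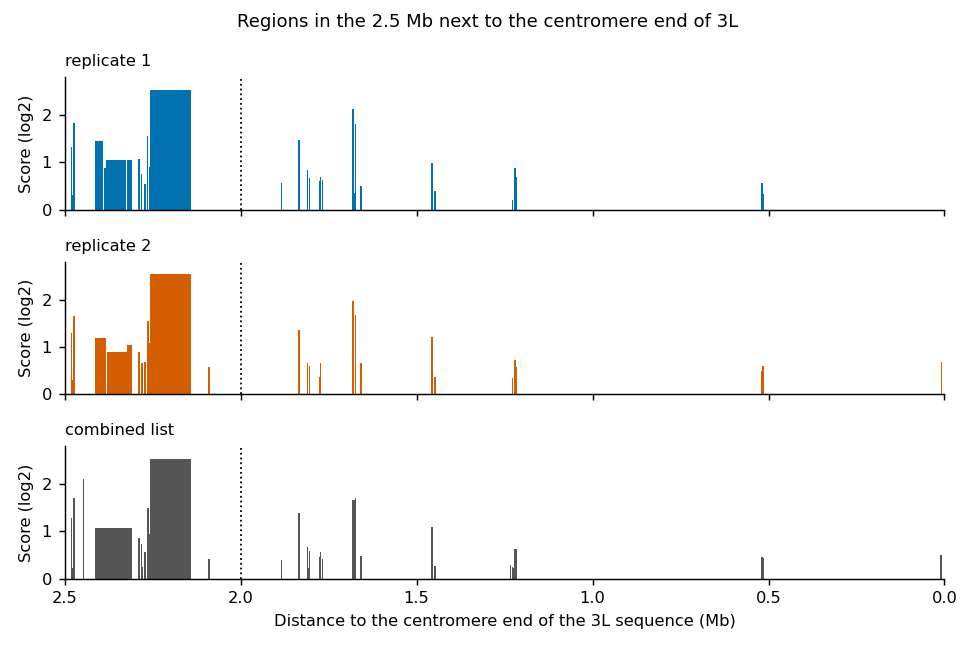
Regions in the 2.5 Mb next to the centromere end of 3L in replicate 1, replicate 2 and the combined list, drawn to scale by width (narrowest drawn at 4 kb) with height the score on the log2 scale, against the distance to the end of the sequence in Mb. The dotted line marks the last 2 Mb, which hold 18, 16 and 20 regions; the 114 kb block with a score near 2.53 lies just outside it.

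The last 2 Mb held 20 regions in the combined list, against 130 in the first 2 Mb. Coverage was 2.28% ± 0.0223 at the centromere end, 28.0% ± 0.126 between the ends and 40.2% ± 0.136 at the telomere end (SD, n = 2). The centromere end had 0 wide regions in any of the 3 lists. Its regions were 1137 to 8043 bp wide, with a median of 2573.5 bp, compared with 2965.5 bp between the ends and 4189.5 bp at the telomere end. Median scores of the combined list were 0.47, 0.57 and 0.70 in that order. In the replicates the centromere end scored 0.65 and 0.66, against 0.79 and 0.77 between the ends and 0.79 and 0.84 at the telomere end.

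A few strong regions were still present in the last 2 Mb. A score of 1 or more was reached by 4 of its 20 combined-list regions, against 25.9% of those on the whole arm. In replicate 1 the count was 3 of 18, against 34.7% over the arm, and in replicate 2 it was 4 of 16, against 33.2%. The highest, from 22867188 to 22871769, scored 1.70 in the combined list, 1.80 in replicate 1 and 1.67 in replicate 2. It lay 100 bases from a region starting at 22859960, which scored 1.66 in the combined list and up to 2.12 and 1.97 in the replicates. The region from 22707242 to 22710576 scored 1.38, 1.47 and 1.36 in the 3 lists. The one from 23084389 to 23089023 scored 1.09, 0.998 and 1.20. Next came a region from 22731941 to 22734704, which was much weaker, at 0.68, 0.83 and 0.65.

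The outermost marked positions differed between the replicates. The last region of the combined list ran from 24532254 to 24536451, 7.11 kb from the end of the sequence, with a score of 0.51. Replicate 2 had a region there with a score of 0.69, and replicate 1 had none. The last place marked in both replicates was a group of 2 regions between 24023757 and 24029149. Of the 20 regions in the last 2 Mb, 14 touched both replicates, 3 touched 1 and 3 touched neither.

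The heterochromatic sequence assigned to the same arm, 3LHet, was marked even less. Over its 2.56 Mb the combined list had 5 regions (0.429% of bases), replicate 1 had 6 (0.458%) and replicate 2 had 5 (0.422%). All 5 combined-list regions there touched both replicates, and the strongest, from 594274 to 597387, scored 1.00 in the combined list, 0.96 in replicate 1 and 1.07 in replicate 2. Repeats may fail to yield uniquely aligned reads, and the part this plays at the end of 3L and on 3LHet was not tested, so a low share does not show absence of the mark.

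The other large arms had more regions next to their centromeres. In the 2 Mb next to the centromere the combined list held 20 regions on 3L, 56 on 2L, 62 on X, 65 on 2R and 122 on 3R. Coverage there was 2.30% and 2.26% in the replicates on 3L, 8.61% and 9.25% on 2L, 7.39% and 7.80% on X, 8.46% and 8.53% on 2R, and 27.5% and 29.1% on 3R. Each arm is a single stretch, so the differences were not tested, and how far each assembled sequence reaches into heterochromatin was not examined.

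Most members were found again in both replicate lists. Of the 1328 regions, 933 (70.3%) overlapped a region of both replicates by at least 1 base, against 67.6% of all 6850 regions of the combined list. Another 88 touched replicate 1 alone, 105 touched replicate 2 alone and 202 (15.2%) touched neither, against 15.7% of the whole list. The shares on 3L were thus near those of the list as a whole. Weighted by width the members matched better, because the unmatched ones were narrow: regions found in both held 91.4% of the covered bases and those found in neither 3.67%. These shares count each touched region whole. Base by base, 81.5% of the combined list's bases on 3L were marked in both replicates and 6.79% in neither. All 3 lists come from the same libraries, so this is not an independent check.

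Recovery followed the score. Among regions scoring under 0.5, 199 of 574 (34.7%) touched both replicates, against 29.6% of all regions of that score in the list. At 0.5 to 1 the count was 394 of 410 (96.1%, against 94.5%), at 1 to 1.5 it was 211 of 213 (99.1%, against 98.6%) and at 1.5 or more 129 of 131 (98.5%, against 98.4%). Regions found in both had a median width of 4357 bp and a median score of 0.80. Those found in neither had 1292.5 bp and 0.34. Of the 122 members narrower than 1303 bp, the smallest width in the replicate lists of 3L, 106 were found in neither replicate, 16 in 1 and 0 in both. Along the arm the share found in both was 70.6%, 73.3%, 68.4%, 68.8% and 69.9% from the first 5 Mb to the last stretch. Over 1 Mb windows it ran from 56.25% to 85.7%, and it was 79.2% in the first 2 Mb against 69.3% between the ends.

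A few strong members were in neither replicate list. They numbered 4 with a score of 1 or more. The strongest ran from 9570514 to 9572516 with a score of 2.66, between weaker neighbours 388 and 611 bases away that scored 0.57 and 0.90. Both replicates had regions on either side, at 366 and 630 bases in replicate 1 and 734 and 1240 bases in replicate 2, but none at the position itself. The second, from 22096414 to 22097753 (score 2.10), lay 24680 bases or more from any other region of the 3 lists. The third, from 14718795 to 14720793 (score 1.48), again sat between regions of both replicates, which came within 353 bases on each side. The fourth, from 7679737 to 7680784, scored 1.40.

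Seen from the replicates, 1084 of the 1180 regions of replicate 1 (91.9%, against 90.8% over its whole list) touched replicate 2. In the other direction 1049 of 1161 did (90.4%, against 88.5%). Unshared regions were weak, with median scores of 0.50 in each replicate and at most 0.83 and 0.86, and narrow, with median widths of 1583.5 and 1611.5 bp. The combined list missed 2 regions of each replicate. Of the bases marked in either replicate, 86.8% were marked in both, the Jaccard index. It was 89.7% in the first 5 Mb, 86.7%, 85.3% and 83.0% in the following stretches and 88.4% in the last one, and 72.4% in the last 2 Mb alone, where 52.9 kb were marked in either.

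Matched regions had similar scores, and their edges were close in the median but not in all pairs. Over 991 reciprocal best pairs on 3L, the median absolute difference in score was 0.09, 90% of pairs lay within 0.23, and the largest difference was 0.63. Pearson's correlation was 0.957 and Spearman's 0.924 across pairs, which are not independent replicates. Replicate 1 scored higher in 553 pairs (55.8%), by a median of 0.02 over all pairs. Starts differed by a median of 113 bases and ends by 123, and both edges lay within 200 bases in 469 pairs (47.3%). For 90% of pairs the starts lay within 1310 bases, and for 90% the ends lay within 1294. The 3 pairs that differed most in score also differed in width. The first, from 17567737 to 17569223 in replicate 1 (score 0.48), was 1487 bp wide there and 2891 bp wide in replicate 2, with a score of 1.11. The second, ending at 21008805 in replicate 1, was 21119 and 12638 bp wide, with scores of 1.88 and 1.26. In these pairs the wider call scored higher, whereas in the third, from 18744939 to 18758411 in replicate 1, the wider call scored lower (13473 bp and 1.05 in replicate 1, 7347 bp and 1.63 in replicate 2).

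**Figure D5:**
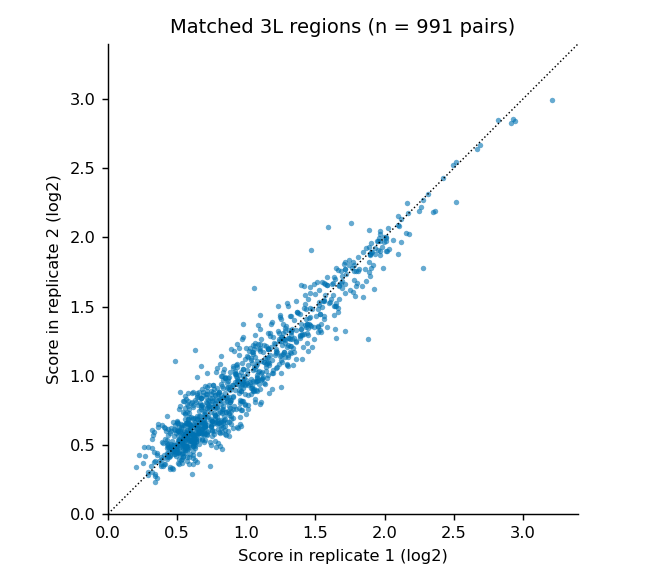
Scores of the 991 matched 3L regions (log2 scale) in replicate 1 against replicate 2, with the line of equal scores dotted. Each point is a reciprocal best pair, and 90% of pairs differ by at most 0.23.

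The combined list joined pieces that the replicates kept apart. On 3L, 132 of its regions held 2 or more regions of replicate 1 and 112 held 2 or more of replicate 2, with at most 7 and 4. The reverse was rare, with 9 regions of replicate 1 and 14 of replicate 2 spanning more than 1 combined-list region. In the 757 members that matched exactly 1 region in each replicate, the combined score was below both replicate scores in 403 (53.2%), between them in 352 and above both in 2, with a median of -0.05 relative to the mean of the replicates. Of the combined list's bases on 3L, 81.5% were marked in both replicates and 6.79% (512 kb) in neither.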

How the data were processed

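Regions called as enriched for H4K20me1 were analysed for 2 ChIP replicates and for the replicate set. They lie on FlyBase release 5, per the file headers, and the submitters' processing notes name Bowtie 0.12.7. The caller, its threshold and the pooling of replicates are unstated. The deposited score was read as a log2 value: on 3L, 11, 30 and 28 pairs of scores (combined list, replicates 1 and 2) differed within 1e-09 by the log2 of 3/2, 4/3 or 5/4, and 0 by their natural or base-10 logarithms. Depth is unknown, so no counting intervals are given.

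Coverage is the percent of bases inside regions; a region belongs to the window that holds its centre. Values are means ± SD of the replicates, and no test was made. Regions named by rule are the first, the last, the 10 widest, the 5 of highest score on the arm and in the last 2 Mb, the 3 of highest score in neither replicate, and the 5 longest gaps and chains; other windows, regions and pairs were named after their values were seen. The members, lists and measures were chosen with earlier results of these data known. Alternatives were score and width filters, joining of close regions, stricter overlaps, other bounds, and leaving out each replicate. Interval functions were tested on simulated lists. Python 3.11.15, numpy 2.4.6, scipy 1.17.1 and matplotlib 3.10.9 were used.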

Additional observations from a re-analysis of the deposited data

How the results depend on the processing

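The telomere end was marked most and the centromere end least in each alternative run on the coverage of the ends, which were the score filter, the width filter, the joining of close regions, the combined list, ends of 1 Mb and of 3 Mb, and each replicate alone. Keeping regions at or above the median score left 664 regions, a median width of 5712.5 bp, a median gap of 6838 bp and 20.4% of gaps under 1 kb. Coverage was then 21.1% of 3L, 32.4% at the telomere end, 22.0% between the ends and 0.968% at the centromere end, with 73.3% of regions in both replicates and a Jaccard index of 84.7%. The score filter also thinned the replicate lists. The 73.3% therefore cannot be set against the shares by score class, which used the full replicate lists and were at least 96.1% from 0.5 up. Keeping regions of 2 kb or more gave a median gap of 4473 bp, 26.9% of gaps under 1 kb, a median score of 0.80, 78.2% in both replicates, a Jaccard index of 86.6% and coverage of 25.05%, 37.7%, 26.1% and 1.83% in the same order. Joining regions under 1 kb apart gave 882 regions, a median width of 4375.5 bp, a median gap of 5543 bp, a Jaccard index of 87.3% and coverage of 27.5%, 41.2%, 28.7% and 2.38%. The combined list covered 30.7%, 44.6%, 32.0% and 3.11%.

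With ends of 1 Mb, coverage was 41.8%, 27.4% and 0.547% from telomere to centromere, and with ends of 3 Mb it was 39.7%, 27.1% and 13.2%, the last because the 107 and 114 kb regions then fall inside. Gaps under 500 bases were 23.1% and under 2 kb 46.8%, and 174 regions reached 10 kb. A region matched both replicates in 61.7% when 50% of both regions had to overlap and in 67.2% when 50% of the combined region had to be covered. Taking a single replicate's list in place of the combined list, leaving out each replicate, gave 1161 to 1180 regions, median widths of 3192 to 3221.5 bp, median gaps of 2833 to 3042 bp, 27.7% to 30.1% of gaps under 1 kb, 51 to 53 wide regions and median scores of 0.78 to 0.79. Coverage ranged over 26.9% to 27.0% of 3L, 40.1% to 40.3% and 27.9% to 28.1%, and 2.26% to 2.30% at the centromere end. No paired analysis was possible because only the ChIP group has lists, with 1 list for each replicate number. Without known depth, the weakest regions are the least certain.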
